A study of Mus musculus with 4 samples.

Results

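Heat shock and chaperone genes are described here as they appeared in Ago2 chimeric eCLIP-seq of the mouse plantaris during MOV-induced muscle hypertrophy. They are the small heat shock protein genes Hspb1, Hspb6, Hspb7 and Cryab, the Hsp70 genes Hspa8 and Hspa5, and the Hsp90 genes Hsp90aa1 and Hsp90ab1. The 8 genes were given by name. Every listed chimeric region that overlapped the GRCm38/mm10 RefSeq span of one of them on its strand was taken, whichever miRNA it named. They held 418 of 93468 listed regions in the control library and 436 of 100897 in the mimic library, and they are 8 of the 7812 genes with a region in either library.

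In chimeric eCLIP-seq, Ago2 is cross-linked to RNA, pulled down, and the miRNA it carries is ligated to the RNA fragment it is bound to, so that 1 read names a miRNA and a place on a transcript. The muscles came from adult male C57BL/6J mice after 10 days of mechanical overload (MOV, in which the synergist muscles are removed so that the plantaris has to take the load). The MOV control library was made from plantaris injected with a lentivirus carrying a scrambled control, and the MOV mimic library from plantaris injected with one carrying a miR-1 mimic. In the study the control went into the left and the mimic into the right leg, so treatment and side cannot be told apart, and whether both libraries came from 1 animal is not given in the sources used here. The study describes the lentivirus as driven by a mouse CMV promoter, which is not specific to muscle fibres, with the fluorescent protein TurboGFP as reporter. Each group had 1 library, so no comparison between the groups has a replicate check and no p-value is given. Intervals are 95% intervals that cover counting error only. The input libraries were not analysed here. The study also describes a miR-1-specific form of the method, in which a miR-1 primer is used to amplify the cDNA. Both libraries named 560 miRNAs, and miR-133a-3p held more of the reads (18.4% control, 20.2% mimic) than miR-1a-3p (11.8% and 13.8%). Whether reads made with the miR-1 primer were included was not tested, which limits comparisons of miR-1 shares with those of other miRNAs.

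Chaperones bind unfolded proteins and keep them from aggregating. Hsp70 and Hsp90 proteins do so in cycles of ATP hydrolysis, with co-chaperones that load and release their clients, while small heat shock proteins hold unfolding proteins without ATP. In skeletal muscle, alphaB-crystallin (Cryab) and Hsp27 (Hspb1) are known for binding desmin, actin and titin under mechanical strain, Hspb6 (Hsp20) and Hspb7 are abundant in striated muscle, Hspa8 (Hsc70) is the constitutive cytosolic Hsp70, and Hspa5 (BiP) is the Hsp70 of the endoplasmic reticulum. Hsp90aa1 and Hsp90ab1 encode the inducible and the constitutive cytosolic Hsp90. A miRNA usually pairs with its target through its seed, bases 2 to 8 from its 5′ end.

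Mature miRNAs with many reads at Hspb6, Hspb7, Cryab, Hspb1, Hspa8 or Hsp90ab1 are shown as the RefSeq table for GRCm38.p6 gives them, with the seed in capitals. The first 4 lines share the seed AGCAGCA.
miR-16-5p: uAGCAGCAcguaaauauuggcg
miR-15a-5p: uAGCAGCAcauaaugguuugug
miR-15b-5p: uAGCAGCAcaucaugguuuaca
miR-195a-5p: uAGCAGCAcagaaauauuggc
miR-206-3p: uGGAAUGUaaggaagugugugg
miR-133b-3p: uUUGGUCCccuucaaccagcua
miR-24-3p: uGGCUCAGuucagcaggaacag
let-7c-5p: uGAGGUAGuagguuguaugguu
miR-1a-3p, miR-133a-3p and miR-378a-3p, which also led at these genes, are named only.

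The 8 genes collected 1465 chimeric reads in the control library (1391 to 1542) and 1620 in the mimic library (1542 to 1701), 0.63% and 0.625% of all reads. Reads are fractional in the deposited files, and the libraries held 232408 and 259207 of them, a ratio of mimic over control of 1.12. The ratio over the 8 genes was 1.11 (1.03 to 1.19), and divided by the library totals it was 0.992. The genes did not all go the same way. The 4 small heat shock protein genes went from 956 to 1195 reads, a ratio of 1.25 (1.15 to 1.36) or 1.12 after division by the library totals, and from 65.2% to 73.7% of the chaperone reads. Hspb6 decided this: without it, an alternative added after the data were seen, the other 3 went from 488 to 552 reads, a ratio of 1.13 and 1.01 after division by the library totals. The 4 Hsp90 and Hsp70 genes went from 509 to 425 reads, a ratio of 0.835 (0.732 to 0.952) or 0.749 after that division. Hspa8 did not share in this fall, with 244 control and 248 mimic reads. Hsp90ab1 went from 189 to 137, Hspa5 from 56.8 to 27.8 and Hsp90aa1 from 19.8 to 12.7. No region lay on the opposite strand of any of the 8 genes.

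**Figure D1:**
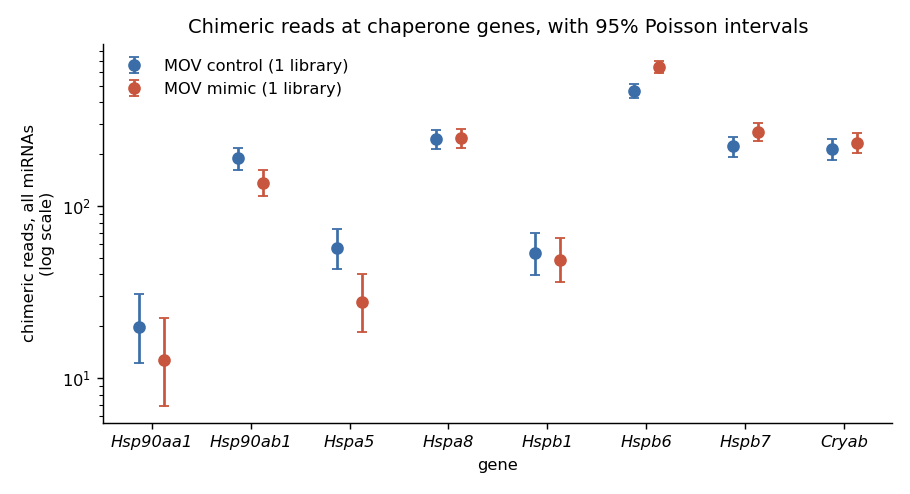
Chimeric reads of all miRNAs at each chaperone gene, on a log axis, in the MOV control library (blue) and the MOV mimic library (red), with 95% Poisson intervals of counting error and 1 library a group. Hspb6 stood highest at 468 and 643 reads, and Hspa5 fell from 56.8 to 27.8 reads.

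Hspb6 ranked 34 of 7812 genes by reads over both libraries, Hspb7 79, Hspa8 80, Cryab 88 and Hsp90ab1 122. Hspb1 ranked 502, Hspa5 633 and Hsp90aa1 1784. Divided by the length of the gene span, introns included, Hspb6 was also highest, with 161 control and 221 mimic reads per kb, followed by Hspa8 with 62.1 and 63.1 and Hspb7 with 48.9 and 59.7. Hsp90aa1 was lowest at 3.70 and 2.37 reads per kb. The stress-inducible Hsp70 genes were close to empty among the listed regions. Hspa1a had no region in either library, and Hspa1b had 2.32 reads in the control library and no region in the mimic library. Whether reads fitting several genes were kept was not examined.

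The genes differed most in which miRNA was joined to them. A single miRNA family held most of the reads at Hspa8 (miR-15/16), Hspb6 (miR-378), Cryab (miR-133) and Hspb1 (miR-1, that is miR-1a-3p with miR-206-3p), and the same family led in both libraries. Hspb7 and Hsp90ab1 were shared between several families. Families were pooled by seed, or by name for miR-1, miR-133 and miR-378, after the reads had been seen.

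**Figure D2:**
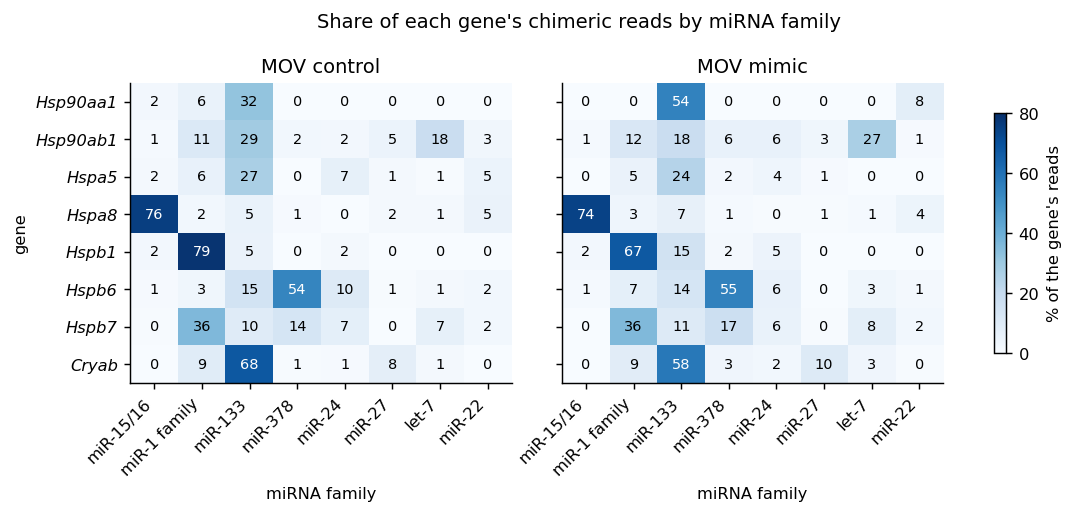
Percent of each gene's chimeric reads that belonged to a miRNA family, with genes in rows and families in columns, for the MOV control library (left) and the MOV mimic library (right). miR-15/16 held 75.6% and 74.2% of Hspa8, miR-378 held 53.6% and 54.9% of Hspb6, and miR-133 held 67.8% and 57.8% of Cryab.

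Hspb6 encodes Hsp20, a small heat shock protein that is phosphorylated by cyclic nucleotide-dependent kinases. miR-378a-3p gave 225 control reads (197 to 256) and 309 mimic reads (276 to 345) there, 48.1% and 48.0% of the gene's reads against 2.14% and 2.5% of each library. Hspb6 was the gene with the most miR-378a-3p reads of the 2111 genes that had any, with 4.66% of all of them. With miR-378b, miR-378c and miR-378d added, miR-378 held 53.6% (49.0 to 58.2) and 54.9% (51.0 to 58.8) of Hspb6, the highest share among the 514 genes with at least 100 reads, whose median was 1.5%. The ratio of miR-378a-3p at Hspb6 was 1.37 (1.15 to 1.64), and that of miR-378a-3p over the whole libraries was 1.31.

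Nearly all of this came from 1 site, where a site is a run of overlapping peaks of the libraries. It lay at chr7:30554625-30554840 on the plus strand, 2090 to 2305 nt from the start of the gene, and held 379 control reads and 517 mimic reads, of which 223 and 302 named miR-378a-3p. miR-24-3p gave 46.2 and 37.6 reads at the same site, and Hspb6 ranked 7 of the 2030 genes with reads of that miRNA. The transcript Hspb6-001 of the GENCODE set has the 7-base match to the miR-24-3p seed once, in its 3′ UTR at base 719, shown with the match in capitals.
Hspb6, miR-24-3p: ctaagcctacCTGAGCCctagtaacct
The letters CTGAGCC, searched on the sense strand of the transcripts, occurred in 30.6% of 22611 genes. A site nearer the start of the gene, at chr7:30554281-30554376, belonged to miR-133a-3p, which gave 47.7 of its 88.5 control reads and 60.2 of its 94.8 mimic reads.

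The last site of Hspb6, at chr7:30555359-30555399 and 44 to 84 nt before the end of the gene, was listed only in the mimic library. It held 31.2 reads (21.1 to 44.0), of which 11.8 named miR-206-3p and 6.49 miR-1a-3p. Over the whole gene miR-206-3p went from 6.05 reads (2.20 to 13.1) to 22.5 (14.6 to 34.5), and miR-1a-3p from 7.95 (3.45 to 15.8) to 24.5 (16.2 to 36.9). Their ratios of 3.72 (1.52 to 11.5) and 3.08 (1.37 to 8.02) lay above the ratios of the same miRNAs over the whole libraries, 0.947 and 1.31. The gene Lin37 ends in the last bases of Hspb6 on the opposite strand.

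Hspb7, a small heat shock protein gene of heart and skeletal muscle, was led by miR-206-3p, with 61.5 control reads (47.5 to 79.5) and 58.2 mimic reads (44.0 to 75.0). miR-378a-3p followed with 25 and 36.7 reads. miR-1a-3p went from 18.2 (10.7 to 28.4) to 38.7 (27.7 to 53.3), a ratio of 2.12 (1.21 to 4.02), whose interval included the 1.31 of miR-1a-3p over all genes. Hspb7 was thus joined to several miRNAs, and the share of the miR-1 family was 36.0% and 35.8%.

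Its 5 sites were all present in both libraries. The highest, at chr4:141423892-141424061, held 104 control and 113 mimic reads, of which miR-206-3p gave 36.1 and 24.1 and miR-378a-3p 25 and 32.2. The site at chr4:141424702-141424891 held 62.2 and 86.6 reads and carried most of the gene's miR-1a-3p, 14.8 in the control library and 29.0 in the mimic library. The site at chr4:141422520-141422619 was of another kind, with miR-30a-5p, miR-30c-5p, miR-30d-5p, miR-22-3p and miR-486b-5p between 2.75 and 9.65 reads each. miR-24-3p led at the last site, with 8.99 and 6.06 reads.

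Cryab, the gene of alphaB-crystallin, belonged to miR-133. miR-133a-3p gave 103 control reads (84.1 to 125) and 101 mimic reads (82.3 to 123), and miR-133b-3p 41.5 (29.4 to 55.6) and 33.3 (22.7 to 46.3). Together they held 67.8% (control) and 57.8% (mimic) of the gene, against 23.6% and 25.1% of the libraries. The 7-base match to the miR-133b-3p seed occurred once in the transcript Cryab-201, in its coding sequence at base 958, with the match in capitals.
Cryab, miR-133b-3p: cactgtgaatGGACCAAggaaacaggt
The letters GGACCAA occurred in 17.4% of the 22611 genes.

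In the control library the 214 reads of Cryab all lay in 1 peak, at chr9:50756331-50756473. The same site held 185 of the 233 mimic reads. The other mimic reads lay at chr9:50753377-50753459, with 33.9 reads (23.5 to 47.5) over 16 miRNAs of which miR-1a-3p gave 6.65, and at chr9:50756545-50756580, with 13.5 reads (6.92 to 22.2). Neither place was listed in the control library. At the shared site alone the ratio was 0.868 (0.706 to 1.06), against 1.09 (0.900 to 1.32) over the whole gene.

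Hspb1 encodes Hsp27, which binds actin and desmin. It was the member with the highest share of miR-1a-3p, 29.7 of 53.1 control reads (20.2 to 42.8) and 22.0 of 48.6 mimic reads (13.8 to 33.3), or 55.8% and 45.2%. miR-206-3p added 12.1 and 10.8 reads, so that the miR-1 family held 78.7% and 67.3% of Hspb1 against 18.4% and 19.4% of the libraries, rank 19 of the 514 genes. miR-133a-3p came next with 2.77 and 6.41 reads. The miR-1a-3p ratio was 0.741 (0.403 to 1.31), with overlapping counting intervals.

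Hspb1 had 2 sites, both in both libraries. The one near the end of the gene, at chr5:135889303-135889419, held 39.3 control and 30.4 mimic reads, and the one near its start, at chr5:135888044-135888130, held 13.8 and 18.2. The transcript Hspb1-001 has no 7-base match to the miR-206-3p seed but 2 matches to bases 2 to 7, both in its coding sequence, at bases 193 and 692, with the match in capitals.
Hspb1, base 193: agctgggaacCATTCCgggactggta
Hspb1, base 692: cggagatcacCATTCCggttactttc
The letters CATTCC occurred in 44.2% of the 22611 genes. The span of Hspb1 is 1645 nt in both annotations, and the matches lay 192 to 197 and 1433 to 1438 nt from its start, within the distances of the sites near the start (125 to 211 nt) and near the end (1384 to 1500 nt). The same comparison was possible for Hspb7, whose spans are 4532 and 4533 nt. Of its 3 matches to CATTCC, those at 4050 to 4055 and 4229 to 4234 nt fell within the distances of the sites at 3923 to 4112 and 4215 to 4267 nt, and the one at 3 to 8 nt fell within none. The site of Hspb7 with the most control reads of miR-206-3p, at 3113 to 3282 nt, spanned none of these matches. In the other 6 genes the spans differ between the annotations and no such comparison was made.

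**Figure D3:**
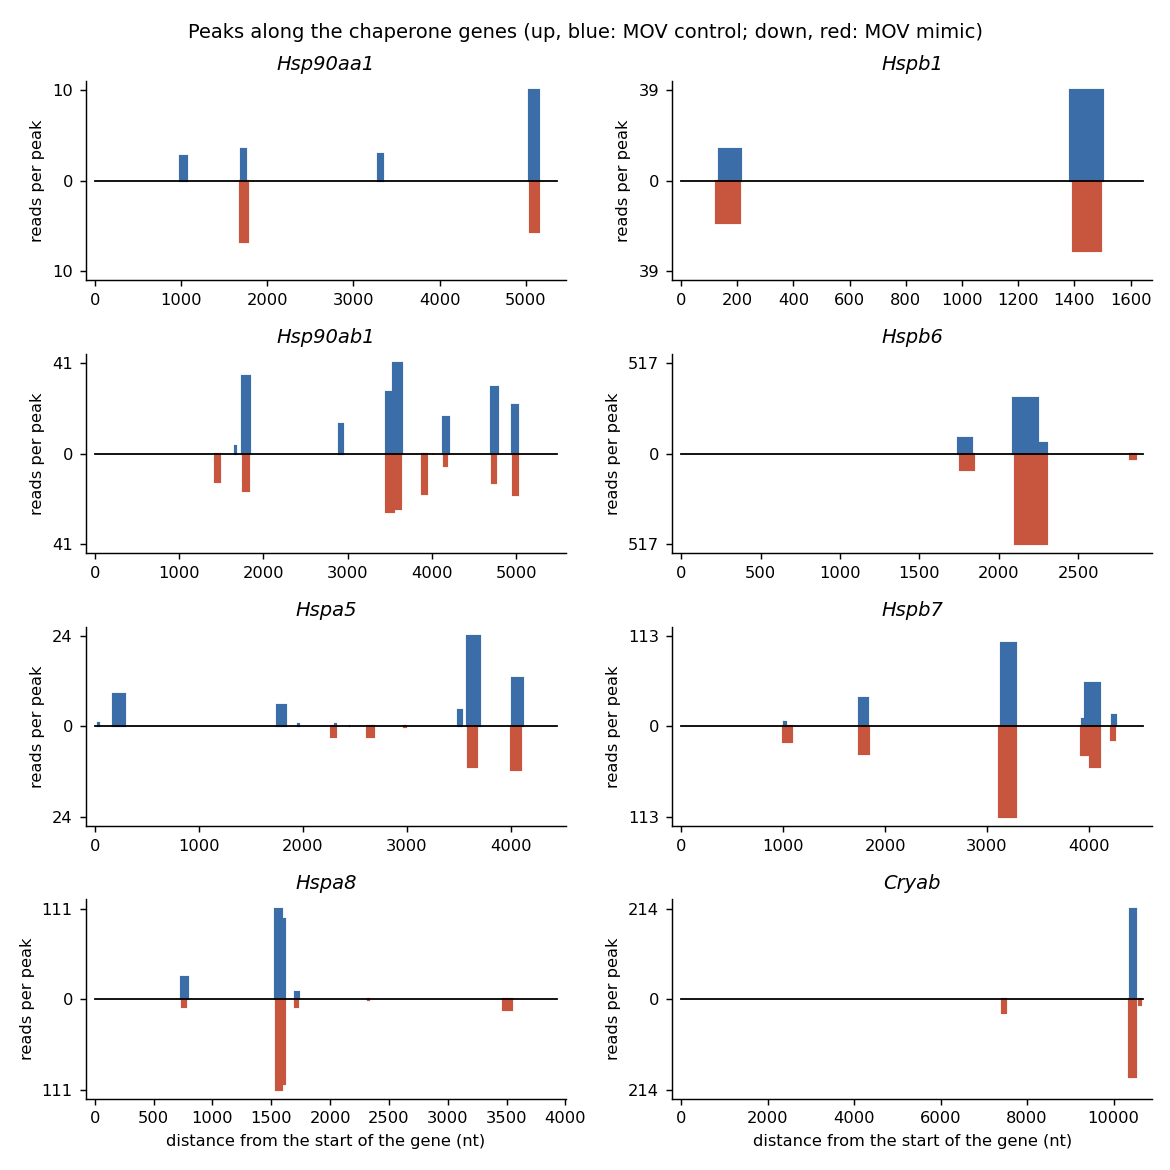
Peaks along each chaperone gene, drawn by distance from the start of the gene in nt, with the height giving the reads of the peak in the MOV control library (up, blue) and the MOV mimic library (down, red). Cryab had 1 dominant site near the end of the gene, and Hspb6 had 1 at 2090 to 2305 nt of its 2909 nt. Hspa8 had 1 in its middle, and Hsp90ab1 was covered by 10 lower sites.

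Hspa8 encodes Hsc70, which folds new proteins and uncoats clathrin vesicles. Its reads belonged to the miR-15/16 family, 184 in each library, 75.6% (69.5 to 80.7) of the gene in the control library and 74.2% (68.3 to 79.5) in the mimic library, against 2.81% and 2.54% of the libraries and a median of 0.807% over the 514 genes, of which it ranked 2. miR-16-5p gave 75.5 and 78.4 reads, miR-15a-5p 52.7 and 52.5, and miR-195a-5p 19.4 and 15.1. Hspa8 had more miR-15a-5p reads than any other of 1127 genes, 4.07% of all reads of that miRNA, and ranked 3 for miR-16-5p. Of the leading families at Hspa8, Hspb6, Cryab and Hspb1, this one had the ratio nearest to 1, 0.997 (0.811 to 1.23).

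The site at chr9:40802810-40802893 held 208 of 244 reads in the control library and 215 of 248 in the mimic library. The letters TGCTGCT, the match to the shared seed, occurred 3 times in the coding sequence of the transcript Hspa8-001, at bases 901, 904 and 1542. The first and second overlap.
Hspa8, base 901: atgaaccaacTGCTGCTgctattgctt
Hspa8, base 1542: gttcaggattTGCTGCTcttggatgtc
They occurred in 41.9% of the 22611 genes. At chr9:40802008-40802069 the reads went from 27.0 (17.8 to 39.3) to 9.48 (4.12 to 17.1). Small nucleolar RNA genes of the Snord14 group lie inside Hspa8 on its strand, and 14.1 mimic reads and no control read touched them, 13.3 of them at chr9:40804748-40804817. Without these regions, an alternative added after the data were seen, the Hspa8 ratio was 0.958 (0.798 to 1.15) in place of 1.02 (0.848 to 1.22).

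Hspa5, the endoplasmic reticulum Hsp70, fell from 56.8 reads (43.2 to 73.9) to 27.8 (18.6 to 40.5), a ratio of 0.490 (0.301 to 0.785), or 0.439 after division by the library totals. miR-133a-3p led with 10.4 and 4.20 reads, followed by miR-133b-3p with 4.94 and 2.56 and miR-125b-5p with 4.0 and 3.34. miR-1a-3p gave 3.38 control reads and none in the mimic library. Of its 11 sites only those at chr2:34774360-34774411, chr2:34775662-34775786 and chr2:34776093-34776207 were in both libraries, with 0.521 and 2.69, 23.7 and 10.7, and 12.6 and 11.5 reads. The site at chr2:34772263-34772375, led by miR-24-3p, held 8.52 control reads and was not listed in the mimic library. The gene Rabepk overlaps Hspa5 on the opposite strand.

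Hsp90ab1, the constitutive cytosolic Hsp90, went from 189 reads (163 to 218) to 137 (115 to 162), a ratio of 0.726 (0.577 to 0.908). Its leading miRNA, miR-133a-3p, went from 39.2 (27.7 to 53.3) to 21.4 (13.0 to 32.1), and miR-133b-3p from 15.2 (8.40 to 24.7) to 3.52 (1.09 to 10.2). The let-7 family had 34.3 and 37.0 reads, a ratio of 1.08 (0.664 to 1.79), and its leading name let-7c-5p gave 12.4 and 13.1 reads. Its share of the gene was 18.2% (12.8 to 24.2) in the control and 27.0% (19.8 to 35.3) in the mimic library, with overlapping intervals. miR-1a-3p gave 15.9 and 13.1. Both miR-133 names together went from 54.4 to 24.9 reads, a ratio of 0.458 (0.276 to 0.757), while miR-133 as a whole took 23.6% of the control and 25.1% of the mimic library.

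The reads of Hsp90ab1 lay in 10 sites with several leading miRNAs. The highest, at chr17:45569617-45569810, held 68.4 control and 51.1 mimic reads, with miR-1a-3p first at 15.0 and 9.83. The site at chr17:45571423-45571515 belonged to miR-133a-3p, with 21.9 of 35.1 and 9.15 of 16.8 reads. The site at chr17:45568475-45568559 held 30.0 and 13.4 reads and was led by miR-214-3p with 9.01 and 7.33. The site at chr17:45570318-45570363, with 13.2 reads, was listed only in the control library, and those at chr17:45571777-45571835 and chr17:45569322-45569375, with 12.7 and 18.1 reads, only in the mimic library.

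Hsp90aa1, the inducible Hsp90, was thinly covered, with 19.8 control reads (12.2 to 30.9) and 12.7 mimic reads (6.92 to 22.2). miR-133a-3p led with 6.32 and 4.94 reads. miR-21a-5p gave 1.0 and 1.81, and miR-148a-3p gave 2.0 control reads and none in the mimic library. Its 4 sites held 10.3 reads at most, and the interval of its ratio, 0.642 (0.297 to 1.37), includes 1, so a change was not detectable at this depth.

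Between the libraries, a gene was called when its reads, divided by the library total, differed by at least 1.5-fold, with at least 20 reads over both libraries. All 8 genes reached 20 reads. None was called higher in the mimic library, where 13.3% of the 2729 genes with that many reads were, and Hspa5, Hsp90ab1 and Hsp90aa1 were called lower, 3 of 8 against 17.7% of all genes. The corrected ratios were 0.439 for Hspa5, 0.575 for Hsp90aa1, 0.651 for Hsp90ab1, 0.821 for Hspb1, 0.911 for Hspa8, 0.977 for Cryab, 1.09 for Hspb7 and 1.23 for Hspb6, with a median over all genes of 0.949. The intervals of Hspa5 (0.270 to 0.704) and Hsp90ab1 (0.518 to 0.814) lay below 1 and that of Hspb6 (1.09 to 1.39) above it. The interval of Hsp90aa1 (0.266 to 1.23) included 1, so its call rests on size alone. Chimeric reads follow the amount of a transcript as well as its binding, and with the inputs not analysed these cannot be told apart, nor can fewer cells of a type and less RNA per cell.

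The mimic is of miR-1, so its reads at these genes were compared. Over the 8 genes miR-1a-3p went from 92.4 reads (74.2 to 113) to 121 (100 to 145), a ratio of 1.31 (0.995 to 1.74), and over the whole libraries its ratio was also 1.31. It made up 6.31% and 7.46% of the chaperone reads against 11.8% and 13.8% of the libraries. miR-206-3p, of the same family, went from 94.2 reads to 103, a ratio of 1.09 (0.82 to 1.46), and took 6.43% and 6.35% of the chaperone reads. Outside Hspb7, Hspb6 and Hspb1 it was sparse, with 8.40 and 4.89 reads at Cryab, 5.09 and 3.43 at Hsp90ab1, and 1.02 and 1.62 at Hspa8. Hspa5 had 1.44 mimic reads of it and no control read, and Hsp90aa1 had none.

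The miR-1a-3p ratio differed from gene to gene. Of the 5 chaperone genes with at least 20 miR-1a-3p reads, Hspb6 (corrected ratio 2.77) and Hspb7 (1.90) were called higher, against 24.3% of 284 genes with as many miR-1a-3p reads. Hspb1, the gene with the highest share of it, was called lower at 0.664, against 10.2% of the 284 genes. That value lay close to the cut. Before division by the library totals the ratio was 0.741, and its interval (0.403 to 1.31) included 1, so this call rests on size alone. Cryab, with 11.2 and 15.6 reads, and Hsp90ab1 were not called. Hspa8 had 4.98 and 7.02 miR-1a-3p reads, and Hsp90aa1 had 1.11 in the control library and none in the mimic library.

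**Figure D4:**
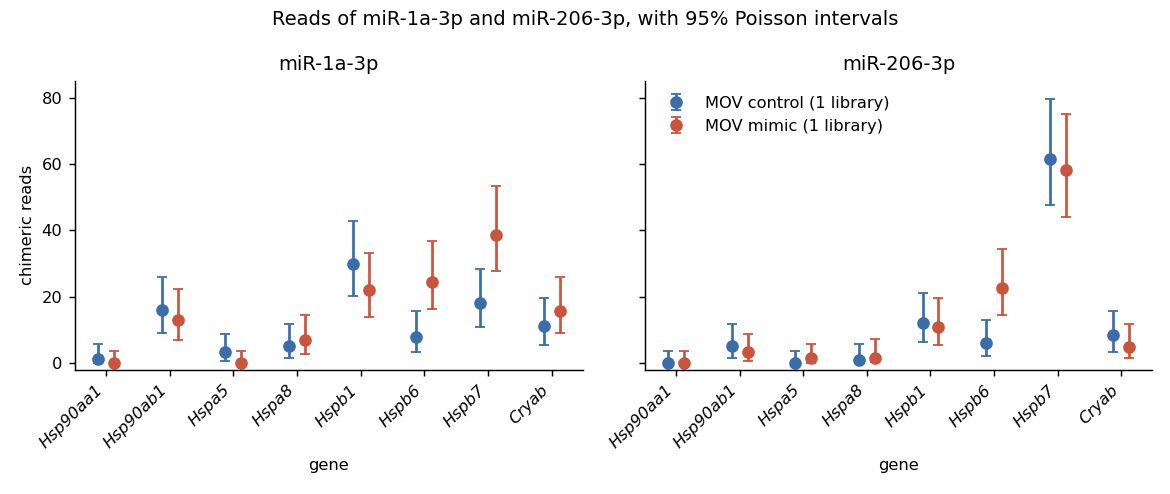
Chimeric reads of miR-1a-3p (left) and miR-206-3p (right) at each chaperone gene in the MOV control (blue) and MOV mimic (red) libraries, with 95% Poisson intervals and 1 library a group. miR-1a-3p was higher in the mimic library at Hspb6 (7.95 and 24.5 reads) and Hspb7 (18.2 and 38.7) and not at Hspb1 (29.7 and 22.0).

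The 8 genes had 43 sites, 23 of them in both libraries, 10 only in the control and 10 only in the mimic library. Sites were not counted over all genes, so no background share stands beside these counts. In reads, the shared sites accounted for 97.1% (control) and 92.1% (mimic), so the sites of 1 library were small: the highest held 13.2 control reads (Hsp90ab1) and 33.9 mimic reads (Cryab). Region by region, 48.1% (43.2 to 53.0) of the 418 control regions were overlapped by at least 1 nt by a mimic region of the same miRNA, against 35.5% of all control regions. The share rose with depth, from 30.8% of the regions under 1 read to 46.2% of those with 1 to under 3 reads and 93.8% of those with 3 or more. By gene it ran from 13.6% at Hspa5 to 73.0% at Hspb6.

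By the makeup of its miRNAs, each gene was compared with the 514 genes of at least 100 reads, using the cosine between the shares of all miRNAs. Cryab was most like Myh1, a fast myosin heavy chain gene (0.990), and Hspb1 most like Lrrc2 (0.988). Hspb6 was most like Cdk8 (0.931), Hspa8 like C1qc (0.924), Hsp90ab1 like the nebulin gene Neb (0.898) and Hspb7 like the myosin light chain gene Myl1 (0.872). Hspa5 and Hsp90aa1 had too few reads.

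The wider chaperone network was described from a list of 65 other genes, of which 55 had a region and 38 had at least 20 reads. Their reads went from 1419 to 1269, and the median corrected ratio of the 38 was 0.728 against 0.949 over all genes tested. Of the 38, 15 (39.5%) were lower in the mimic library by at least 1.5-fold and 2 (5.26%) higher, against 17.7% and 13.3% of all genes. The listed genes had a median of 50.2 reads and all genes one of 42.7. Among the 19 with at least 50 reads, 3 were lower (15.8%) and 1 higher (5.26%), against 10.2% and 6.72% of all genes of that depth, so most of the calls were in thinly read genes.

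The listed genes with the most reads were Hspa9, the mitochondrial Hsp70, with 123 control and 137 mimic reads, Hspb8 with 121 and 111, and the chaperonin subunit gene Tcp1 with 85.4 and 63.3. The co-chaperone gene Bag3, whose protein works with Hspb8 in clearing damaged filamin, had 67.8 and 54.8, and Hspa4 had 58.6 and 63.8. Among those with at least 50 reads, the corrected ratio was highest for Hspd1, the mitochondrial Hsp60 (1.60, 18.3 and 32.7 reads), Dnaja2 (1.15) and Dnajc3 (1.08). It was lowest for the myosin chaperone gene Unc45b (0.623, 30.6 and 21.2 reads), Smyd1, which also acts in myosin assembly (0.632, 59.1 and 41.6 reads), and Tcp1 (0.665).

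By role, where 17.7% of all genes were called lower, the genes called lower were Pdia3, Calr, Hsp90b1 and Pdia6 among 7 endoplasmic reticulum genes with at least 20 reads, Cct7, Cct2, Tcp1 and Pfdn1 among 9 chaperonin and prefoldin genes, and Dnajb1, Dnaja4 and Dnajc7 among 7 J-domain genes. Smyd1 and Unc45b, Hsph1, and Trap1 completed the 15. None was called in either direction among 4 co-chaperone genes. The heat shock factor gene Hsf2, the heat shock factor binding protein gene Hsbp1 and the small heat shock protein gene Hspb8 were not called either. Hspd1 and Dnaja3, which were called higher, act in mitochondria, as does Trap1, which was called lower. These groups by role were made after the values were seen. The lowest ratio belonged to Dnajb1, the main Hsp40 partner of Hsp70, with 22.8 control reads (14.6 to 34.5) and 3.44 mimic reads (0.619 to 8.77). It is named because of that value. Hspb2, which lies within the span of Cryab on the opposite strand, Hspa1l, Dnaja1, Hsf1 and Fkbp5 had no region in either library.

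Markers of skeletal muscle fibres were read in both libraries, 8 of 8, with 37319 and 49146 reads, a corrected ratio of 1.18. They did not all go the same way, since Myh1 went from 6380 to 11359 reads and Myh4 from 5140 to 4015. The tissue label thus matched its markers. Fibroblast markers, 4 of 4 in both, gave 4161 and 4105 reads (0.885), and smooth muscle markers, 2 of 2, gave 103 and 134. Endothelial markers gave 20.4 and 39.1 reads, with Pecam1 (0 and 9.66) and Cdh5 (11.0 and 25.5) up and Kdr (9.43 and 3.93) down. Red blood cell markers gave 16.9 and 22.8. The macrophage marker Lyz2 gave 22.0 and 23.6 reads while Cd68 was at 0, the adipocyte markers were at 0 in both libraries, and the Schwann cell markers gave 3.24 control reads. The part of these shifts in the chaperone ratios was not tested.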

How the data were processed

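The submitters' processing notes list UMI-tools 1.1.1, cutadapt 3.2, STAR 2.7.7a, Bowtie 1.2.3, HOMER 4.11 and mm10, while the methods name mm9. Of the deposited regions, 94.7% (control) and 94.4% (mimic) lay on the strand of a GRCm38 RefSeq gene and 36.3% and 37.0% on that of an NCBIM37 gene, so the coordinates were read as GRCm38. The authors deposited, per library, peaks with a miRNA name and an estimated count of chimeric reads; 19.4% and 17.4% of these are whole (tolerance 1e-06) and how the fractions arose is not given in the sources used here. Library totals were 232408 and 259207 reads, which sets the counting error. Reads were summed over stranded gene spans (overlap of at least 1 nt), with strand from RefSeq promoters or GENCODE. Poisson, Clopper-Pearson and conditional binomial intervals (95%, reads rounded to whole numbers) cover counting error only, as reads are not independent molecules beyond the authors' duplicate removal. No test between groups was possible with 1 library each. Lists of other chaperones and of cell type markers were searched by symbol, and all 65 listed chaperones matched; the marker Adgre1 did not. The genome in hand was NCBIM37, so no peak sequence was read, and seed matches were searched on the sense strand of the GENCODE transcript with the longest coding sequence per gene. Counting over spans and calls of higher genes were checked on simulated data with Poisson counts. Calls of lower genes and variation beyond counting error were not simulated. The text names all 8 genes, their 3 miRNAs with the most reads, miR-1a-3p and miR-206-3p at each, the highest peaks, the gene most alike in miRNA makeup, and, of the wider list, the 5 with most reads and the 3 with the highest and lowest ratios among those with at least 50 reads. The called genes of the wider list, and some others with few or no reads or for their role, were named outside this rule with their values known. Genes and lists were chosen with earlier results of these data known. Python 3.11.15, pandas 2.3.3, numpy 2.4.6, scipy 1.17.1 and matplotlib 3.10.9 were used.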

Additional observations from a re-analysis of the deposited data

How the results depend on the processing

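No paired analysis was possible because only 1 library was made for each of the groups. Of 94 alternatives, 69 stayed within the counting interval, or within 1.5-fold for counts of genes, 22 moved further, and 3 turned a ratio whose interval had lain above 1. The ratios of Hspa8 and Cryab, whose intervals include 1, also passed below it: Hspa8 (1.02) gave 0.992 with regions of at least 1 read, 0.911 and 0.905 by library totals with and without the mitochondrial chromosome and Rn18s-rs5, and 0.958 without the small nucleolar RNA regions, and Cryab (1.09) gave 0.977 and 0.970 by those totals. Hsp90aa1 had no control region of 3 reads and gave no ratio there. The ratio over the 8 genes, 1.11, turned to 0.992 when divided by library totals, to 0.985 when those left out the mitochondrial chromosome and Rn18s-rs5, and to 0.980 without Hspb6. Without each of the other genes in turn it lay up to 1.16 (without Hsp90ab1). Keeping regions of at least 1 read gave 1369 control and 1513 mimic chaperone reads, and of at least 3 reads 1155 and 1323, with an Hsp90ab1 ratio of 0.534. The miR-1a-3p share (6.31% and 7.46%) was 12.7% and 13.8% with miR-206-3p added and 4.55% and 4.59% as a share of regions. Leaving out 1 gene at a time gave 4.44% (without Hspb1) to 8.47% (without Hspb6) in the control and 6.09% (without Hspb7) to 9.86% (without Hspb6) in the mimic library. The overlap of control regions, 48.1%, was 54.3% and 78.8% with at least 1 or 3 reads required in both libraries, 40.0% with 50% reciprocal overlap and 85.9% for any miRNA. In the wider list a fold of 2 left 1 gene higher and 7 lower, and at least 50 reads left 1 and 3. Of 12 gene and miRNA pairs with a sequence, 5 had a 7-base match and 10 a 6-base match. The pairs of Hspa8 with miR-16-5p, miR-15a-5p and miR-195a-5p share a seed, so the same letters were counted for each. The matched 6-base letters occurred in 39.4% (TACCTC) to 70.2% (GCTGCT) of 22611 genes. The causes were not tested. Depth limits Hsp90aa1 most, the gene with the fewest reads.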
